A study of Mus musculus with 9 samples.

Results

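Contractile and myofibroblast genes encode the actin-based machinery that lets smooth muscle cells and activated fibroblasts generate tension, and 10 of them were followed here in fat cells depleted of the transcription factor Ebf1. They are Acta2, Actg2, Tagln, Cnn1, Cnn2, Myl9, Tpm1, Tpm2, Vcl and Lmod1. The genes were chosen by name, with earlier results of these data known. A probe set was included when its only gene symbol in the platform table was 1 of these 10. This gave 19 of the 34945 probe sets with 1 symbol, and 10 of 18193 genes. A probe set is the group of short array probes that reports 1 transcript.

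The cells were 3T3-L1, a mouse preadipocyte line that becomes fat-like in culture and was treated here after it had matured. Every group received lentivirus, which carried a scrambled hairpin in the controls and a short hairpin against Ebf1 in the others, called hairpin 1 and hairpin 2. All 3 groups had 3 to 4 rounds of infection and then at least 8 days in 5 µg/ml puromycin, which kills cells without the virus, so the controls carry the same viral and drug exposure. Each group has 3 arrays, 9 in all, numbered as repeats in the titles. The titles do not say whether repeats came from separate cultures, so p-values measure the spread between arrays, which may be technical. The series asks which genes depend on Ebf1 in fat cells.

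In a contractile cell, thin filaments of smooth muscle actin (Acta2, Actg2) are wrapped by tropomyosins (Tpm1, Tpm2) and pulled by myosin, whose regulatory light chain is the product of Myl9. Transgelin (Tagln) and the calponins (Cnn1, Cnn2) bind the filaments, leiomodin (Lmod1) nucleates them, and vinculin (Vcl) ties them to cell adhesions. Many of these genes are targets of serum response factor, which binds a DNA element called the CArG box and is switched on by MRTF coactivators when free actin monomers run low. Preadipocytes hold strong actin stress fibres, and the fibres are taken down as the cells fill with lipid.

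The upstream sequences of 4 of these genes are shown because they hold, or lack, an exact match to the CArG box and because the genes differed in how they responded. RefSeq's table for GRCm38.p6 listed a start for 8 of the 10 genes; Actg2 and Tagln were not matched. The 250 bases before each start were searched on both strands for the CArG box, for the palindrome bound by Ebf factors (TCCC, any 2 bases, GGGA), and for CATTCC, the site bound by TEAD factors. For the CArG box only exact forms such as CCTTATAAGG, with A or T alone between CC and GG, were counted. Forms with a mismatch were not searched, so a gene without a match may still hold one. Stretches that lie downstream of the gene's outermost listed start were left out of what is printed. Capitals mark the CArG box and, in Vcl, also the Ebf palindrome that follows it. All are written 5′ to 3′ on the gene's own strand.
Cnn2, chr10:79988350-79988599, plus strand: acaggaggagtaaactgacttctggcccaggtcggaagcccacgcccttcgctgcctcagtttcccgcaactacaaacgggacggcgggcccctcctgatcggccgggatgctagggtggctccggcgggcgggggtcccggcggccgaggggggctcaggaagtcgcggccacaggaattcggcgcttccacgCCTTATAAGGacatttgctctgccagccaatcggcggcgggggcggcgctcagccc
Myl9, chr2:156775214-156775407, plus strand: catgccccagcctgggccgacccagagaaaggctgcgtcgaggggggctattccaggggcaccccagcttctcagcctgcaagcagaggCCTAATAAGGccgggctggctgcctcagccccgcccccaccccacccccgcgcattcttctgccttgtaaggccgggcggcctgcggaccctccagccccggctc
Vcl, chr14:20929148-20929382, plus strand: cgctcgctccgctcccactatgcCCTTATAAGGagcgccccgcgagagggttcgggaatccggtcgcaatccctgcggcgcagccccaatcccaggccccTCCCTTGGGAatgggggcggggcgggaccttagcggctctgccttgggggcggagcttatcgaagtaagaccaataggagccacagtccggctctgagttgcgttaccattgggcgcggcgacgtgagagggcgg
Tpm2, chr4:43523584-43523804, minus strand: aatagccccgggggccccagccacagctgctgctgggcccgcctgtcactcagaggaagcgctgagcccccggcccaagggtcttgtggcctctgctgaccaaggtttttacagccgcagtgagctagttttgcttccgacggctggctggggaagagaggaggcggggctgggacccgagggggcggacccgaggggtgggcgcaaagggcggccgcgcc

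An exact CArG box lay in the window of 3 of the 8 members with a listed start, Cnn2, Myl9 and Vcl, against 1.47% of all 32851 listed starts. The Ebf palindrome was found in 1 member, Vcl, against 0.779% of starts. CATTCC was found in 4 members, Acta2, Tpm1, Vcl and Lmod1, against 12.6% of starts. In Vcl the match reads GGAATG, which is CATTCC on the opposite strand. The first bases of GGAATG overlap the end of the Ebf palindrome. Tpm2 and Cnn1 held no match to any of the 3 motifs in this window. A match is a run of letters and not a measured binding site, and genes such as the tropomyosins have further start sites outside the window.

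On the brightest Ebf1 probe set, all 6 hairpin arrays read lower than any scrambled array. RMA signals, on a log2 scale where a step of 1 is a doubling, were 10.12, 10.15 and 10.31 with the scrambled hairpin, 9.32, 9.54 and 9.45 with hairpin 1, and 8.90, 8.72 and 9.20 with hairpin 2. The fall was 0.75 with hairpin 1 (SE 0.113, limma adjusted p = 0.000102) and 1.25 with hairpin 2 (limma adjusted p = 2.98e-07). Ebf1 was lower with hairpin 2 than with hairpin 1, by a log2 difference of -0.50 (limma adjusted p = 0.00351). On another Ebf1 probe set that fell with both hairpins, the hairpins differed by -0.27, which missed the threshold (limma adjusted p = 0.269). On the remaining tested Ebf1 probe sets the hairpins differed by -0.52 and -0.61. Both passed (limma adjusted p = 0.00628 and 0.00811 over all probe sets).

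Fat cell markers were present: Adipoq, the gene of the fat cell hormone adiponectin, read 14.79 to 14.84 and Fabp4, of a fatty acid carrier, 14.83 to 14.95 over the 9 arrays, both near the top of the array's range, where changes are hard to see. The mean level of the 6 measured fat cell markers was 12.41 to 12.50 on scrambled arrays, 12.34 to 12.43 with hairpin 1 and 12.27 to 12.37 with hairpin 2, with Lep below the signal filter. Pparg, of the master regulator of fat cells, fell by 0.25 with hairpin 1 and by 0.56 with hairpin 2 (limma adjusted p = 0.000533 and 9.07e-08), and Cidec, of a lipid droplet protein, fell by 0.25 with hairpin 2 (limma adjusted p = 0.00255). Arrays correlated at 0.994 to 0.998 within groups. The first repeat of hairpin 1 stood apart from the other hairpin 1 arrays on the second principal component, at -9.39 against -24.4 and -21.5. Markers of fibroblasts and preadipocytes moved with the hairpins. The mean level of the 6 measured markers was 9.17 to 9.29 on scrambled arrays. It was 10.05 to 10.22 with hairpin 1 and 10.10 to 10.16 with hairpin 2, with Cd34 below the signal filter. Hairpin 1 raised 5 of the 5 tested, where 23.7% of all genes tested were called higher and 9.23% lower (limma adjusted p below 0.05). Hairpin 2 raised 4 and lowered 1, where 21.5% of all genes tested were called higher and 13.3% lower. The gene lowered was Dlk1, which differed by 0.70 with hairpin 1 and by -0.83 with hairpin 2. Between the hairpins Dlk1 differed by -1.52 (limma adjusted p = 9.56e-06), so the list means hide a split. For smooth muscle and pericyte markers the mean level was 7.13 to 7.17, 7.23 to 7.26 and 7.19 to 7.24, and 2 of 8 (Rgs5 and Myocd) lay below the filter. The 6 tested did not move together. Des and Smtn were called higher with both hairpins, Smtn from a scrambled mean of 5.44, under the filter. Cspg4 was called lower with hairpin 1, and Myh11 and Mcam with hairpin 2. Of 8 skeletal and heart muscle markers 6 lay below the filter (Myod1, Myog, Myh1, Myh6, Tnni3 and Tnnt3). The mean level of 6 macrophage and leukocyte markers was 6.01 to 6.04 on scrambled arrays, 6.03 to 6.19 with hairpin 1 and 6.22 to 6.33 with hairpin 2, and 3 of them (Adgre1, Ptprc and Itgam) lay below the filter. Cd68, a lysosomal marker of macrophages, read 2.26-fold above a scrambled mean of 5.67 with hairpin 2. It passed the filter through that group alone, so its difference is a description. The other macrophage markers tested, Csf1r and Cd14, differed by 0.18 and -0.15 with hairpin 2, and neither passed. The part that the fat cell, fibroblast, smooth muscle and macrophage markers play in the results below was not tested.

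With hairpin 1 the contractile genes rose or did not pass the test, whereas with hairpin 2 they went in both directions. A gene was tested on its brightest probe set if that averaged at least 5.72 over all arrays, and 8 of the 10 genes did. With hairpin 1, 5 of the 8 rose (Acta2, Tpm1, Tpm2, Myl9 and Cnn2) and 0 fell, in a comparison where 33% of all 12735 genes tested were called at a limma adjusted p below 0.05, 23.7% higher and 9.23% lower. With hairpin 2, 3 rose (Tpm2, Acta2 and Vcl) and 2 fell (Tagln and Cnn2), against 34.8% of all genes called, 21.5% higher and 13.3% lower. The median log2 difference of the 8 was 0.55 with hairpin 1 and 0.08 with hairpin 2, beside 0.067 and 0.024 over all genes tested. Between the hairpins, 5 of the 8 were lower with hairpin 2 and 0 higher, against 29.1% of all genes called, 17.4% lower and 11.6% higher. Taking the hairpins together against scrambled, 4 rose (Tpm2, Acta2, Tpm1 and Vcl) and 0 fell, against 34.6% called, 23.8% higher and 10.7% lower; the Vcl call was lost in 12 of 17 alternatives. Among the 14 member probe sets above their own filter, hairpin 1 raised 9 and lowered 0, and hairpin 2 raised 6 and lowered 2. Of all 24461 probe sets, 26.3% and 29.6% were called in either direction. Tpm1 and Tpm2 have several probe sets each, so these are not counts of separate genes. The 14, the 9 and the 6 include a Tpm2 probe set whose scrambled mean of 5.11 was under the probe set filter of 5.51 and which passed only through the hairpin arrays, where it is high. Averaged, the hairpins raised 7 and lowered 0 (28.7% called in either direction). With hairpin 2, 7 probe sets were lower and 0 higher than with hairpin 1 (23.5% called in either direction). In these bulk samples, fewer cells with a transcript and less of it per cell cannot be told apart. Both comparisons share the scrambled arrays, so the values of a gene with each hairpin are given side by side and not as independent evidence.

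**Figure D1:**
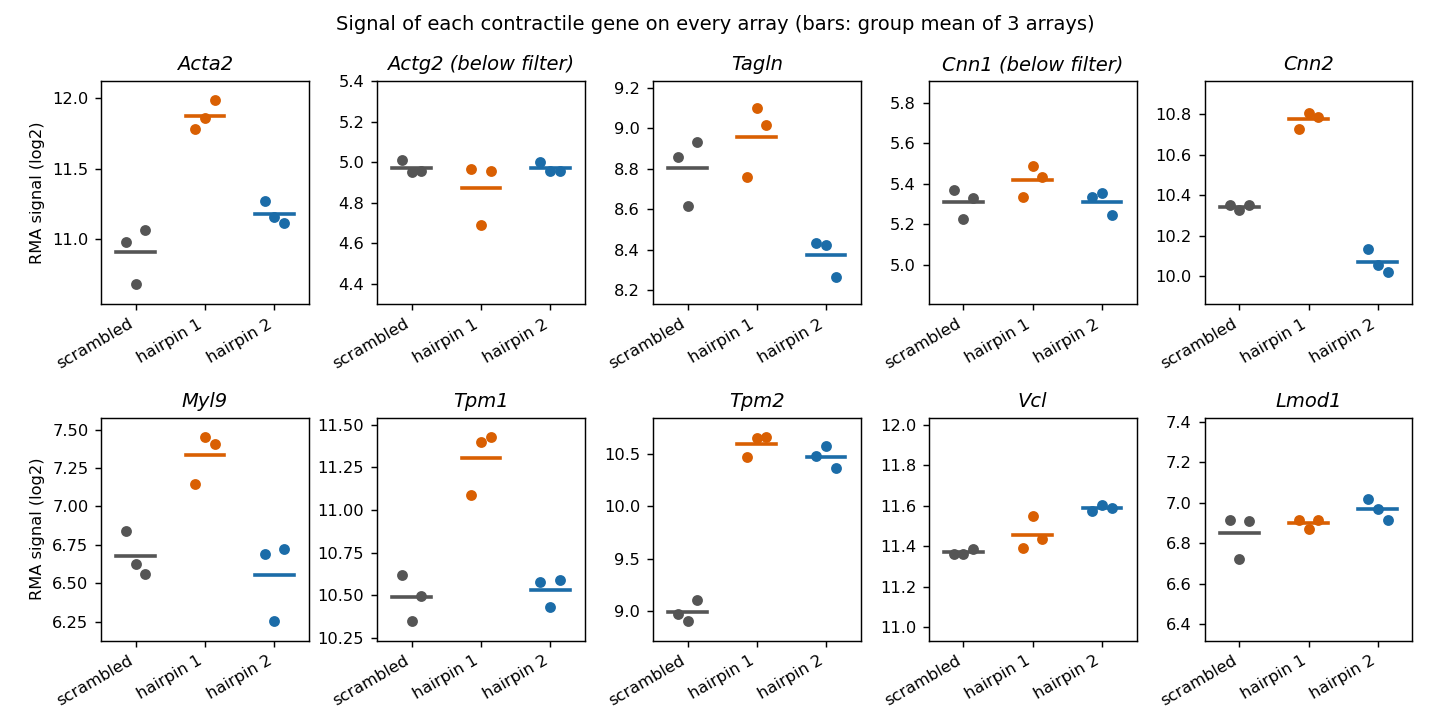
RMA signal (log2, vertical axis) of each of the 10 genes on the 3 scrambled, 3 hairpin 1 and 3 hairpin 2 arrays, on the probe set with the highest signal; points are arrays in the order of the repeats, bars are group means, and each panel has its own vertical range of at least 1 log2 unit. Acta2, Cnn2, Myl9 and Tpm1 peak with hairpin 1, Tpm2 is about 1.5 above scrambled with both hairpins, and Actg2 and Cnn1 lie at 4.69 to 5.49 throughout.

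Among the actins, Acta2, which encodes the smooth muscle actin that defines myofibroblasts, rose with hairpin 1. Its signals were 10.98, 10.68 and 11.07 with the scrambled hairpin, 11.78, 11.86 and 11.99 with hairpin 1, and 11.27, 11.16 and 11.11 with hairpin 2. No groups overlapped: hairpin 1 was highest, and the lowest hairpin 2 array lay just above the highest scrambled array. The rise was 1.96-fold with hairpin 1 (log2 difference 0.97, SE 0.0931, limma adjusted p = 1.12e-06). With hairpin 2 it was 1.21-fold (0.27, 95% confidence interval 0.07 to 0.47, limma adjusted p = 0.0318). That call was lost in 6 of 18 alternatives, among them quantile normalization (limma adjusted p = 0.051) and leaving out scrambled repeat 2 (0.16, limma adjusted p = 0.205), hairpin 2 repeat 1 (limma adjusted p = 0.129) or hairpin 2 repeat 2 (limma adjusted p = 0.0594). Hairpin 2 was lower than hairpin 1 by -0.70 (limma adjusted p = 3.76e-05), a difference that passed in 18 of 18 alternatives. Averaging the 3 Acta2 probe sets, of which the other two lie near the floor, shrank the hairpin 1 rise to 0.33 (limma adjusted p = 0.0031), the hairpin 2 value to 0.12 and the difference between the hairpins to -0.21 (limma adjusted p = 0.0416).

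The name of the Acta2 probe set ends in a suffix that Affymetrix used for probes shared by transcripts of more than 1 gene, so it may also detect other actins, which was not tested. The skeletal actin gene Acta1 rose with hairpin 1 (0.69, limma adjusted p = 0.00016), and its difference of 0.21 with hairpin 2 missed the threshold. For the heart actin gene Actc1 the values were -0.01 and -0.07, and neither passed; both actin genes were singled out after their values were seen. Actg2, the enteric smooth muscle actin gene, read 5.01, 4.95 and 4.96 with the scrambled hairpin, 4.97, 4.69 and 4.96 with hairpin 1, and 5.00, 4.96 and 4.96 with hairpin 2. It lay below the signal filter on every array, so no change was detectable. A pair of further Acta2 probe sets read 4.79 to 5.12 on all arrays and lay below the filter as well.

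Both tropomyosin genes rose with hairpin 1, and Tpm2 also with hairpin 2. Tpm2, which encodes the beta tropomyosin of muscle and fibroblast filaments, read 8.97, 8.90 and 9.10 with the scrambled hairpin. With hairpin 1 it read 10.47, 10.65 and 10.66, and with hairpin 2 10.48, 10.58 and 10.36. All 6 hairpin arrays lay above all scrambled arrays, and the hairpin groups overlapped. The rise was 3.03-fold with hairpin 1 (1.60, SE 0.0905, limma adjusted p = 2.75e-09) and 2.79-fold with hairpin 2 (1.48, limma adjusted p = 2.8e-09). These differences stood at the 99.8th and 99.4th percentiles of all genes tested. The hairpins differed by -0.12 (95% confidence interval -0.31 to 0.07, limma adjusted p = 0.362). With array quality weights that difference passed (-0.18, limma adjusted p = 0.0456).

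A further Tpm2 probe set gave rises of similar size. It went from 7.62, 7.63 and 7.85 to 9.30, 9.63 and 9.50 with hairpin 1 and to 9.28, 9.40 and 9.40 with hairpin 2. Its log2 differences were 1.78 and 1.66 (both passed in limma over all probe sets). The probe set whose name marks similarity to other genes read 0.74 and 1.01 above a scrambled mean of 5.11, near the floor of the array. It passed the filter only through the hairpin arrays, so its difference is a description. The last, at 5.97 on scrambled arrays, differed by -0.03 and 0.04 and did not pass with either hairpin (limma adjusted p = 0.892 and 0.834). Averaging all 4 probe sets gave smaller rises, of 1.02 and 1.05, which still passed.

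Tpm1, the gene of alpha tropomyosin, read 10.62, 10.35 and 10.50 with the scrambled hairpin, 11.09, 11.40 and 11.43 with hairpin 1, and 10.58, 10.43 and 10.59 with hairpin 2. Hairpin 1 arrays stood above all others, and the scrambled and hairpin 2 arrays overlapped. The rise was 1.76-fold with hairpin 1 (0.82, SE 0.0984, limma adjusted p = 1.22e-05). With hairpin 2 the difference was 0.04 (95% confidence interval -0.16 to 0.25) and did not pass. Without repeat 1 of hairpin 1, the lowest of its group, the hairpin 1 difference was 0.93.

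The Tpm1 probe sets did not all behave alike with hairpin 2. On the probe set next in signal, values were 10.29, 10.14 and 10.33 with the scrambled hairpin, 10.97, 11.36 and 11.35 with hairpin 1, and 10.61, 10.57 and 10.70 with hairpin 2. No groups overlapped there, and it rose by 0.98 with hairpin 1 and by 0.37 with hairpin 2 (limma adjusted p = 0.0122 over all probe sets). The difference between this probe set and the one with the highest signal, taken within each array, was -0.24 ± 0.09 on scrambled arrays. It was -0.08 ± 0.04 on hairpin 1 arrays and 0.09 ± 0.06 on hairpin 2 arrays (mean ± SD of 3 arrays per group). The 3 groups did not overlap on it. With no overlap, an exact two-sided permutation test of each pair could only give p = 0.1, the smallest that 3 arrays against 3 can give. The test therefore adds nothing to the lack of overlap. This contrast of probe sets was chosen after the values were seen. It describes unequal change of what the probe sets detect, not which transcript changed. Another Tpm1 probe set, at 6.91 on scrambled arrays, rose by 0.54 with hairpin 1, and its hairpin 2 difference of -0.10 missed the threshold. The probe set next in signal minus this one, within each array, averaged 3.35 on scrambled, 3.79 on hairpin 1 and 3.83 on hairpin 2 arrays. There the hairpin groups overlapped. The last Tpm1 probe set lay below the filter.

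**Figure D2:**
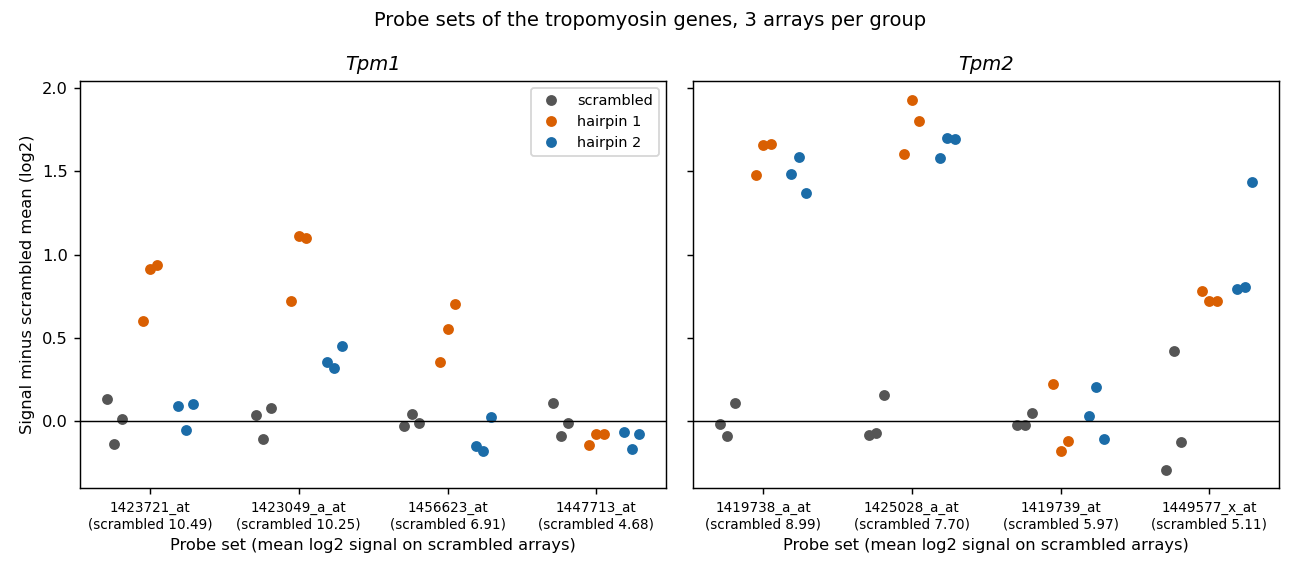
Signal of each Tpm1 and Tpm2 probe set on every array minus that probe set's mean on the scrambled arrays (log2, vertical axis), with the scrambled mean under each name; points are arrays. The first 2 Tpm2 probe sets rise by 1.48 to 1.78 with both hairpins, while the Tpm1 probe sets above the filter rise by 0.54 to 0.98 with hairpin 1 and differ by -0.10 to 0.37 with hairpin 2.

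Myl9, the gene of the regulatory light chain through which kinases switch myosin on, rose with hairpin 1. It read 6.84, 6.63 and 6.56 with the scrambled hairpin, 7.15, 7.45 and 7.41 with hairpin 1, and 6.69, 6.25 and 6.72 with hairpin 2. Only the hairpin 1 arrays stood apart, above all others. The rise was 1.58-fold (0.66, SE 0.127, limma adjusted p = 0.000914), and the difference with hairpin 2 was -0.12 (95% confidence interval -0.39 to 0.15), which did not pass. Hairpin 2 was lower than hairpin 1 by -0.78 (limma adjusted p = 0.00025). The probe set averaged 6.86 over all arrays, at the 50.9th percentile of probe sets with 1 symbol. Whether its differences are compressed at that level was not tested.

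Of the filament-binding genes, Cnn2, which encodes the calponin found outside muscle, moved in opposite directions. It read 10.35, 10.33 and 10.35 with the scrambled hairpin, 10.73, 10.81 and 10.79 with hairpin 1, and 10.14, 10.06 and 10.02 with hairpin 2. The groups did not overlap, with hairpin 1 highest and hairpin 2 lowest. Cnn2 rose 1.35-fold with hairpin 1 (0.43, SE 0.0729, limma adjusted p = 0.000302) and fell 1.21-fold with hairpin 2 (-0.27, limma adjusted p = 0.00794). The direct difference between the hairpins was -0.70 (limma adjusted p = 3.11e-06). Both calls kept their direction in 18 of 18 alternatives.

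Tagln, the gene of transgelin, an early marker of smooth muscle, fell with hairpin 2. It read 8.86, 8.62 and 8.93 with the scrambled hairpin, 8.76, 9.10 and 9.01 with hairpin 1, and 8.43, 8.42 and 8.26 with hairpin 2. Every hairpin 2 array lay below every other array, and the scrambled and hairpin 1 arrays overlapped. The fall was 1.34-fold (-0.43, SE 0.11, limma adjusted p = 0.0061). With hairpin 1 the difference was 0.16 (95% confidence interval -0.08 to 0.39, limma adjusted p = 0.302), and the hairpins differed by -0.58 (limma adjusted p = 0.000856). With array quality weights the hairpin 1 difference passed (0.20, limma adjusted p = 0.0255).

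Vcl, of the adhesion protein vinculin, read 11.36, 11.36 and 11.38 with the scrambled hairpin, 11.39, 11.55 and 11.43 with hairpin 1, and 11.57, 11.61 and 11.59 with hairpin 2. The groups did not overlap, but the steps between them were small. Vcl rose 1.16-fold with hairpin 2 (0.22, SE 0.063, limma adjusted p = 0.0127), and its difference of 0.09 with hairpin 1 did not pass (limma adjusted p = 0.319). A further Vcl probe set, near the floor of the array, differed by 0.13 and 0.30 and did not pass with either hairpin. Between the hairpins Vcl differed by 0.13 (limma adjusted p = 0.138), which passed in 4 of 18 alternatives, with a difference of 0.18 after quantile normalization.

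For Lmod1 neither hairpin gave a called difference, and Cnn1 was not tested. Lmod1, of the filament nucleator leiomodin, read 6.92, 6.72 and 6.91 with the scrambled hairpin, 6.92, 6.87 and 6.92 with hairpin 1, and 7.02, 6.97 and 6.92 with hairpin 2. The groups overlapped, and it differed by 0.05 and 0.12, with 95% confidence intervals of -0.13 to 0.23 and -0.06 to 0.30. Cnn1, the calponin gene of differentiated smooth muscle, lay below the signal filter at 5.22 to 5.37 with the scrambled hairpin, 5.34 to 5.49 with hairpin 1 and 5.25 to 5.35 with hairpin 2.

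**Figure D3:**
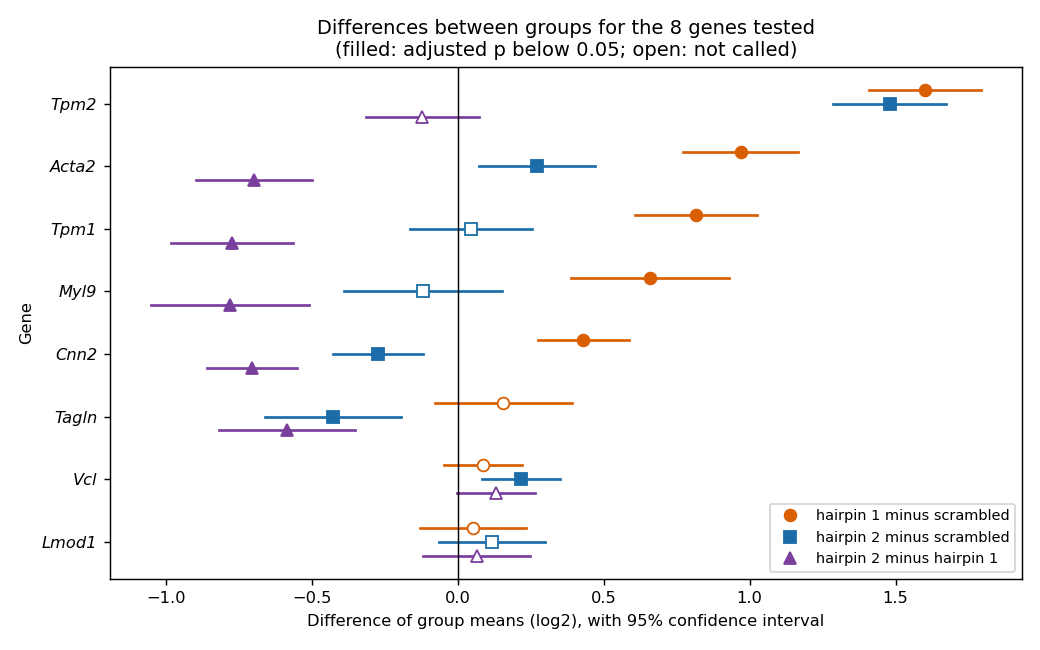
Differences of group means (log2, horizontal axis) for the 8 genes tested, with 95% confidence intervals from limma; filled symbols passed and open ones did not; circles are hairpin 1 minus scrambled, squares hairpin 2 minus scrambled and triangles hairpin 2 minus hairpin 1. The triangles of Acta2, Tpm1, Myl9, Cnn2 and Tagln lie at -0.78 to -0.58, and that of Tpm2 at -0.12.

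The groups of a comparison did not overlap for 6 of the 8 members with hairpin 1, 5 with hairpin 2 and 6 between the hairpins; over all genes tested these shares were 43.4%, 49.4% and 35.6%. The 5 members lower with hairpin 2 than with hairpin 1 differed by -0.78 to -0.58, beside a median of -0.035 over all genes tested. Each of the 5 passed in every alternative in which it was tested, including those that left out repeat 1 of hairpin 1. Ebf1 signal was highest on scrambled arrays and lowest with hairpin 2. Acta2, Tpm1, Myl9 and Cnn2 were higher with hairpin 1 than on scrambled arrays, and lower with hairpin 2 than with hairpin 1. For Tagln the difference between hairpin 1 and scrambled did not pass. How these genes relate to the amount of Ebf1 was not tested.

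Genes outside the members whose pattern over the 9 arrays was nearest to that of Acta2 were Unc119, Fzd2, Mogat1, P3h4 and Opn3. Nearness was the Euclidean distance between the 9 log2 differences from each gene's scrambled mean, and it ran from 0.365 to 0.443. Fzd2, a Wnt receptor gene, differed from scrambled by 0.88 with hairpin 1 and 0.34 with hairpin 2. Mogat1, of an enzyme that makes diacylglycerol, differed by 0.89 and 0.18. These are descriptions over 9 arrays in 3 groups.

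Other genes of the contractile programme were read from 4 lists. The list of further smooth muscle contractile genes had 14 of 17 genes tested. With hairpin 1, 5 rose and 3 fell (median 0.07), and with hairpin 2, 7 rose and 3 fell (median 0.31). Over all genes tested the medians were 0.067 and 0.024, with 23.7% and 21.5% called higher and 9.23% and 13.3% lower. The counts against scrambled of this list and the next 3 stand beside those values. Des, the muscle intermediate filament gene desmin, rose by 0.67 and 0.62 with hairpins 1 and 2. Smtn, of the smooth muscle protein smoothelin, read 0.45 and 0.88 above a scrambled mean of 5.44; it passed the filter of 5.72 only through the hairpin arrays, so its difference is a description, although it is in the counts. Tpm4, a tropomyosin gene of non-muscle cells, rose by 0.33 and 0.74. Fhl2, a LIM-domain cofactor gene, fell by 0.54 and 1.37. Myh11, the smooth muscle myosin heavy chain gene, fell by 0.50 with hairpin 2, and its value with hairpin 1, -0.07, did not pass; it was singled out after its values were seen. Between the hairpins 6 genes of this list were higher with hairpin 2 and 3 lower. Over all genes tested, 11.6% were called higher and 17.4% lower with hairpin 2 than with hairpin 1. The counts between the hairpins in the next 3 lists stand beside these shares.

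Stress fibre and focal adhesion genes had 25 tested, and 14 rose and 2 fell with each hairpin (medians 0.25 and 0.27). The genes were not all the same. Vasp and Ilk were called higher with hairpin 1 alone, Tes higher and Fermt2 lower with hairpin 2 alone. Pdlim5 fell with hairpin 1 (-0.22) and rose with hairpin 2 (0.27). These genes were singled out after their values were seen. Both sets of 14 include Fblim1, whose scrambled mean of 5.51 was under the filter and which passed only through the hairpin arrays. Zyx, of the tension-sensing adhesion protein zyxin, read 8.83, 8.87 and 8.91 with the scrambled hairpin, 9.89, 10.20 and 10.24 with hairpin 1, and 9.85, 10.01 and 9.89 with hairpin 2. Its hairpin arrays all lay above the scrambled arrays, by 1.24 and 1.05 on average. Flna, of the actin cross-linker filamin A, rose by 0.66 and 1.04, Actn1, of alpha-actinin, by 0.48 and 0.66, and Actg1, of a non-muscle actin, by 0.25 and 0.56. Flna and Actg1 were higher with hairpin 2 than with hairpin 1 (0.38 and 0.32, limma adjusted p = 0.0041 and 9.3e-05). Over the list, 8 genes were higher with hairpin 2 and 3 lower.

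Targets of MRTF and of the YAP coactivator had 11 tested, and 7 rose and 2 fell with hairpin 1 (median 0.49), while 2 rose and 4 fell with hairpin 2 (median -0.12). Between the hairpins 6 were lower with hairpin 2 and 2 higher. Thbs1, of the matrix glycoprotein thrombospondin, read 11.82, 11.80 and 11.89 with the scrambled hairpin, 13.10, 13.19 and 13.26 with hairpin 1, and 11.41, 11.44 and 11.65 with hairpin 2. It stood highest with hairpin 1 and lowest with hairpin 2, with no overlap, and the hairpins differed by -1.68 (limma adjusted p = 9.59e-11). Filip1l rose by 1.28 with hairpin 1, and its hairpin 2 value of -0.07 missed the threshold. Ccn1, of a matricellular protein, rose with both (1.27 and 1.04), as did Tgfb1i1, of the adhesion protein Hic-5 (0.66 and 0.73).

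Myofibroblast and TGF-beta genes had 22 tested, of which 15 rose and 0 fell with hairpin 1 (median 0.45) and 14 rose and 1 fell with hairpin 2 (median 0.41). Tgfb2, of a TGF-beta ligand, read 7.47, 7.27 and 7.21 with the scrambled hairpin, 8.61, 8.58 and 8.58 with hairpin 1, and 9.24, 9.16 and 9.28 with hairpin 2. It was higher with hairpin 2 than with hairpin 1 by 0.63 (limma adjusted p = 7.62e-05). Cdh11, a cadherin gene of fibroblasts, rose by 1.30 and 1.05, and the matrix genes Fn1 and Col1a1 rose with both hairpins too. Postn and Lox, of periostin and the collagen cross-linker lysyl oxidase, were singled out after their values were seen: they rose by 2.17 and 1.77 with hairpin 1, while their hairpin 2 values of -0.13 and 0.31 missed the threshold. They were lower with hairpin 2 than with hairpin 1 by -2.30 and -1.46 (limma adjusted p = 9.59e-11 and 2.93e-07). Over the list, 9 genes were higher and 7 lower with hairpin 2 than with hairpin 1.

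**Figure D4:**
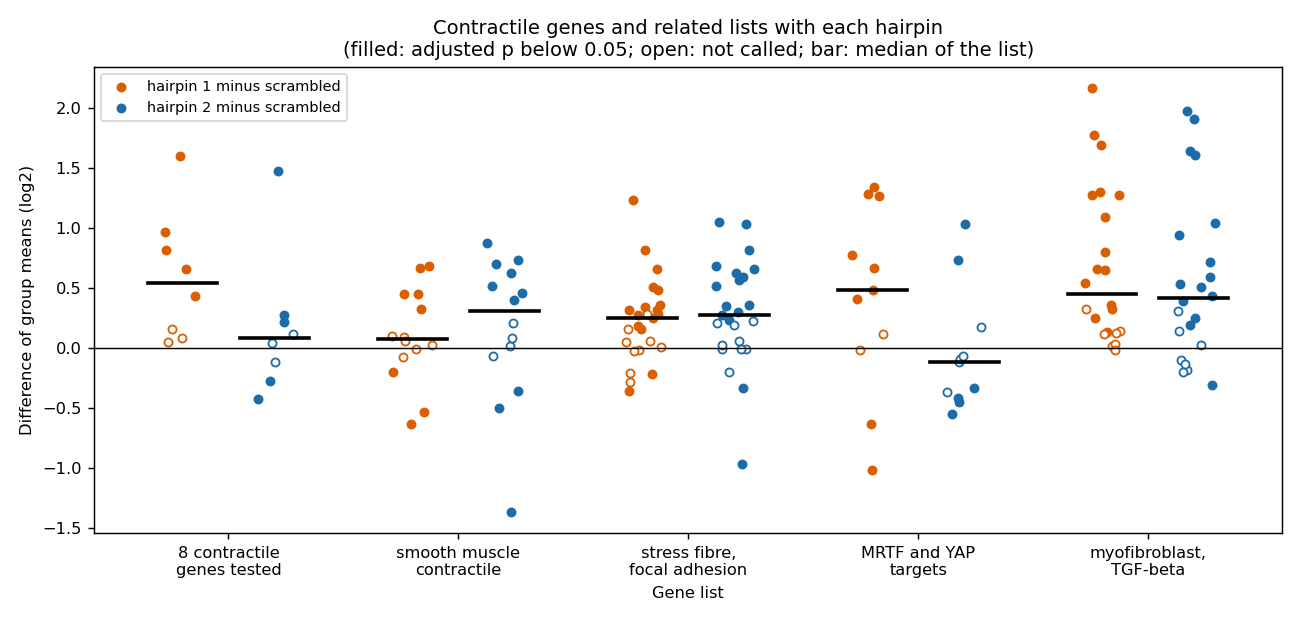
Differences of group means (log2, vertical axis) for the 8 contractile genes tested and the genes of 4 related lists, hairpin 1 minus scrambled and hairpin 2 minus scrambled; each point is a gene, filled where the limma adjusted p is below 0.05, and black bars are medians. The medians of the stress fibre list are 0.25 and 0.27, while those of the MRTF and YAP target list are 0.49 with hairpin 1 and -0.12 with hairpin 2.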

How the data were processed

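Per the labels' protocols, a NuGEN kit amplified the RNA and biotin marked it. The authors deposited log2 signals, 1 for each probe set on each array. RMA made them, per the submitters' processing notes, and no version is named there. RMA corrects background, normalizes the arrays together and summarizes probes. The genome build and annotation behind them are not given in the sources used here. Gene names came from the platform annotation; 64 control probe sets were dropped, and 932 with several symbols and 9160 with none named no gene. Each gene was read from its probe set with the highest mean, and genes at or above the 30th percentile (5.72) were tested. The fit used limma 3.58.1 (lmFit, then eBayes with trend; R 4.3.3) on the 3 groups and 9 arrays together, with two-sided p-values adjusted by Benjamini-Hochberg over 12735 genes, or 24461 probe sets. The chain was tested on simulated data. Arrays have no count depth; 3 per group limit the precision. No arrays held identical values throughout.

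The members and lists were chosen with earlier results of these data known. Named genes were the members, Ebf1, the 4 genes of each list with the smallest p over both hairpins and the 5 nearest to Acta2. The 18 alternatives left out each array in turn or changed the filter, probe set rule, normalization, trend, weights, groups fitted or replicate block. A further gene list is not reported here.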

Additional observations from a re-analysis of the deposited data

Results flagged for a closer look

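The direct test between the hairpins, which asks whether their effects against the shared scrambled arrays differ, passed for 5 members. On the log2 scale hairpin 2 minus hairpin 1 was -0.70 for Acta2, -0.58 for Tagln, -0.70 for Cnn2, -0.78 for Myl9 and -0.77 for Tpm1, with limma adjusted p of 3.76e-05, 0.000856, 3.11e-06, 0.00025 and 2.35e-05. In each case all 3 hairpin 2 arrays lay below all 3 hairpin 1 arrays.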

How the results depend on the processing

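With hairpin 1, 5 members were higher in 16 of the 18 alternatives, 4 with the filter at the 50th percentile, which leaves Myl9 untested, and 6, with Tagln, under array quality weights; 0 were lower in all 18. With hairpin 2, 2 to 3 were higher and 2 lower in all 18, the lost call being Acta2. Between the hairpins, 4 to 6 were lower, on the same 2 exceptions (Myl9 untested, Tpm2 added), while 1 was higher, Vcl, after quantile normalization, equal array medians or array quality weights, and 0 to 1 without single arrays. Member probe sets higher with hairpin 2 ran from 3 to 7 (6 with all arrays) and lower from 1 to 2 without single arrays; 1 was higher than with hairpin 1 after quantile normalization, against 0. With array quality weights, hairpin 1 called 5238 genes higher and 2222 lower (3023 and 1176 without weights), both hairpins together 2154 lower (1369), and 3812 were lower with hairpin 2 than hairpin 1 (2219). Averaging probe sets left 5 genes of the related lists lower over both hairpins, against 8. No call of a member reversed; the cause of the changes was not tested.

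No pairing by repeat number was detected: deviations of same-numbered arrays correlated at -0.29 to 0.25 and 1 of 9 arrays matched best with its own number. With 3 arrays per group this check cannot settle whether repeats were paired. With the replicate block, hairpin 1 raised 5 members, and hairpin 2 raised 3 and lowered 2.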
